A study of Mus musculus with 40 samples.

Results

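Nqo1, Gclc, Gclm, Txnrd1, Srxn1, Hmox1, Nfe2l2 and Gsr are 8 genes of the antioxidant program of the transcription factor NRF2. They were chosen by name, with earlier results of these data known. All 8 were found among the 11119 genes of the deposited expression tables. RNA sequencing of polyadenylated RNA had been done on livers of mice at rest and after partial hepatectomy, the surgical removal of part of the liver, after which the remaining liver grows back. The 40 samples fell into 9 groups by age, time after surgery and treatment with ATRi, an inhibitor of the kinase ATR, which guards DNA replication.

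At 3 months of age there were 7 samples at 0 h, 3 at 48 h, 4 at 72 h and 4 at 72 h with ATRi. The 12-month groups held 8 samples at 0 h, 3 at 48 h, 3 at 48 h with ATRi, 4 at 72 h and 4 at 72 h with ATRi. The titles place ATRi at 24 h after surgery in all 3 treated groups, and the unit of its dose is not given in the sources used here. The labels give neither a strain nor a vehicle for the other groups, which are called untreated below. In the group at 0 h and 3 months, the titles name 3 of the 7 mice wt1, wt2 and wt3. No other title carries wt, and the titles do not spell it out. All 4 mice of each 12-month group at 72 h, and 2 of the 4 mice of each 3-month group at 72 h, were also sampled at 0 h, so those comparisons set the same animals against themselves in part.

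Each level is the authors' log2 of a value they named sigma, which the sources used here do not define. A difference of 1 on this scale is a 2-fold difference of sigma. For 8 groups the tables held only a group mean with no error. Levels of single livers were given for 1 group, the 12-month livers at 72 h with ATRi, from the mice M545, M546, M547 and M548. No read counts were given, so the depth is unknown. Levels are not compared between genes. The labels call the samples liver and hepatocytes. The 8 measured hepatocyte markers of 10 listed had a mean level between 8.28 and 8.87 in the 9 groups. Markers of macrophages had a mean level between 3.39 and 5.24. Markers of neutrophils had a mean level between 0.70 and 0.97 at 3 months and between 0.88 and 3.78 at 12 months. The lowest level of any gene was 0.049, so the low neutrophil means lie near the floor. In whole-tissue RNA, fewer cells of a type and less RNA per cell cannot be told apart.

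NRF2, encoded by Nfe2l2, is held in the cytoplasm by KEAP1, which hands it to a ubiquitin ligase for destruction. Oxidants and electrophiles modify KEAP1, NRF2 then collects in the nucleus and, paired with a small MAF protein, binds antioxidant response elements near its target genes. Because the protein is controlled mostly through its destruction, the Nfe2l2 transcript is not a measure of NRF2 activity. In liver the program supplies glutathione and NADPH-driven reductases that remove peroxides, quinones and products of heme.

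The members lie on 5 chromosomes of the mouse genome, build GRCm38. Their gene models (GENCODE M21) are Nqo1 at chr8:107388225-107403206 on the minus strand, Gclc at chr9:77754535-77794485 on the plus strand, Gclm at chr3:122245557-122270732 on the plus strand, Txnrd1 at chr10:82833951-82897712 on the plus strand, Srxn1 at chr2:152105516-152111376 on the plus strand, Hmox1 at chr8:75093621-75100589 on the plus strand, Nfe2l2 at chr2:75675513-75704641 on the minus strand, and Gsr at chr8:33652523-33698163 on the plus strand. Txnrd1 overlaps the protein-coding gene Eid3 on its own strand, and Gclm overlaps a pseudogene on its own strand and a noncoding gene on the other. The counting rule is not given in the sources used here, so reads of these overlaps cannot be assigned.

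The promoters of 4 members are shown because they pair different sequence content with different behaviour after surgery. Srxn1 had the most matches to an antioxidant response element core, and Gclm had a match and the narrowest range of levels. Nqo1 had no match within the 250 bases searched and was higher by more than 1 at 48 h at both ages. Nfe2l2 is the gene of the factor itself. The sequences are the 250 bases before the RefSeq transcript start (GRCm38.p6), read 5′ to 3′ on the gene's strand. Capitals mark matches to TGACNNNGC or TGAGNNNGC, searched on both strands. The windows are chr2:152105274-152105523 on the plus strand for Srxn1, chr3:122245307-122245556 on the plus strand for Gclm, chr8:107403206-107403455 on the minus strand for Nqo1 and chr2:75704664-75704913 on the minus strand for Nfe2l2.
Srxn1: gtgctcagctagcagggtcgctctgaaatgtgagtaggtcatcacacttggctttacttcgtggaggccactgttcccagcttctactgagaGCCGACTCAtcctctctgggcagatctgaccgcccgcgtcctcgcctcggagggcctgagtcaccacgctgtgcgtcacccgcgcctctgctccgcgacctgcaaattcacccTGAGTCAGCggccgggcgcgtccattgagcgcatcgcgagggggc
Gclm: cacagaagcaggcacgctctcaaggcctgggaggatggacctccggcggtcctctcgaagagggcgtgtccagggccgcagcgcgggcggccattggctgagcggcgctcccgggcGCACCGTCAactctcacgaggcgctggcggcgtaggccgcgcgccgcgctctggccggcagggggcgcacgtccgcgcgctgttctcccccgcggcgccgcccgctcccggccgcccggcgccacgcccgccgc
Nqo1: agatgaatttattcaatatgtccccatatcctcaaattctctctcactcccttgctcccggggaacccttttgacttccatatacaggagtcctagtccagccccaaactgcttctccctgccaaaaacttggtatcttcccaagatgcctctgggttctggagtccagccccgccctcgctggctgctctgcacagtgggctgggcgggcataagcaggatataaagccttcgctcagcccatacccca
Nfe2l2: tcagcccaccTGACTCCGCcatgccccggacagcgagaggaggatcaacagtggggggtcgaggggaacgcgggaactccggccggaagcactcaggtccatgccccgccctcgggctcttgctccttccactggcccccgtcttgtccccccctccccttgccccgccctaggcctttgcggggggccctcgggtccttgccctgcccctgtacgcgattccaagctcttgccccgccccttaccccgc
In Srxn1 the form TGAGNNNGC was present 158 to 150 bases before the start on the minus strand and 45 to 37 bases before it on the plus strand. The second of these overlaps a match to TGACTCA, the AP-1 motif, at 45 to 39, and another AP-1 match lies at 102 to 96. Gclm held TGACNNNGC 134 to 126 bases before its start on the minus strand, and Nfe2l2 held it 240 to 232 bases before on the plus strand. The second of 3 listed starts of Txnrd1, the one nearest the position in the deposited tables, held TGACNNNGC at 92 to 84 on the minus strand. Windows were found for 5 of the 8 members, without Gclc, Hmox1 and Gsr. These short motifs are common: TGACNNNGC was in 10.2% of all 32851 windows of this length, TGAGNNNGC in 14.4%, either form in 23.0% and TGACTCA in 4.46%. A match describes letters in the window and not a bound site. Bases outside these windows were not searched, so a gene without a match may have elements elsewhere.

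**Figure D1:**
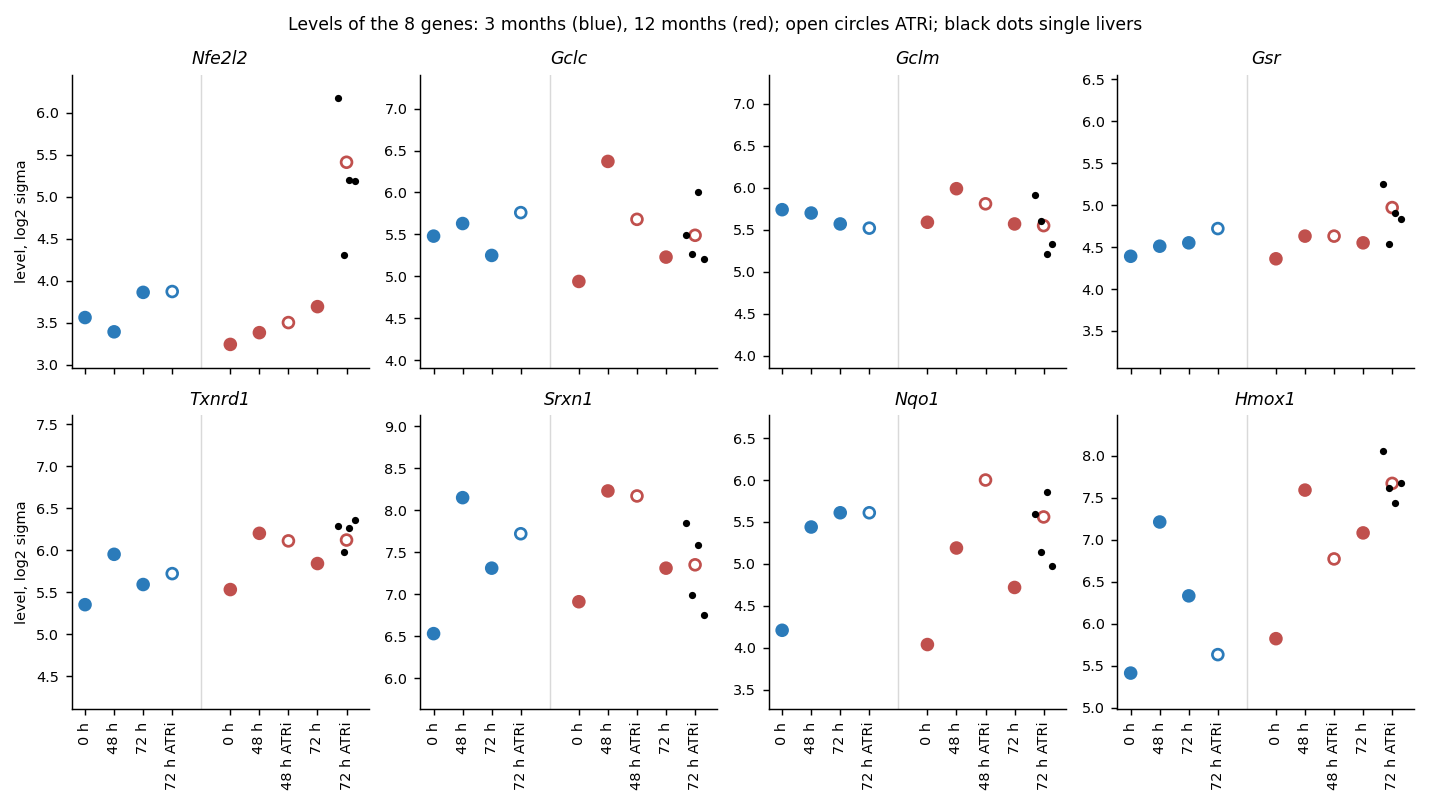
Level of each of the 8 genes in the 9 groups, as log2 sigma on the vertical axis (each panel has its own offset, and levels are not compared between panels). Filled circles are group means of untreated mice, open circles are group means with ATRi, blue is 3 months, red is 12 months, and black dots are the 4 single livers. All 4 livers of Nfe2l2 lie above its other 8 means, while Gclm stays within 0.47 over the 9 means.

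Over the 9 group means, Hmox1 had the widest range of levels among the members at 2.26, followed by Nfe2l2 at 2.18, Nqo1 at 1.96, Srxn1 at 1.7 and Gclc at 1.44. Txnrd1 ranged over 0.84, Gsr over 0.61 and Gclm over 0.47. A range of 1 or more was thus seen in 5 of 8 members, against 37.4% of all genes, whose median range was 0.82. Among the 4 single livers, 7 of 8 members had an SD above the median of all genes, which was 0.23.

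After surgery without ATRi, the members did not move as a block. At 48 h Hmox1, Srxn1 and Nqo1 were higher by more than 1 at both ages, and Gclc was higher by more than 1 at 12 months only, a difference between ages that was not tested. At 3 months, 3 of the 8 members were higher by 1 or more at 48 h and none lower, against 3.76% of all genes higher and 2.67% lower. At 12 months, 4 of 8 were higher and none lower, against 3.26% higher and 1.85% lower. At 72 h against 0 h, 1 member was higher by 1 or more at each age and none lower. That was Nqo1 at 3 months, where 2.46% of all genes were higher and 2.02% lower, and Hmox1 at 12 months, where 2.92% were higher and 1.01% lower. The 48 h and 72 h comparisons of each age share their 0 h samples. Neither group of these comparisons has an error of its own, so calls were made by size. With the spread borrowed from the 4 livers with ATRi, limma called the same 3 members at 48 h at 3 months and Txnrd1 besides, and the same 4 at 12 months and Txnrd1 besides. At 72 h it called Nqo1 and Hmox1 at 3 months and Hmox1 at 12 months.

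**Figure D2:**
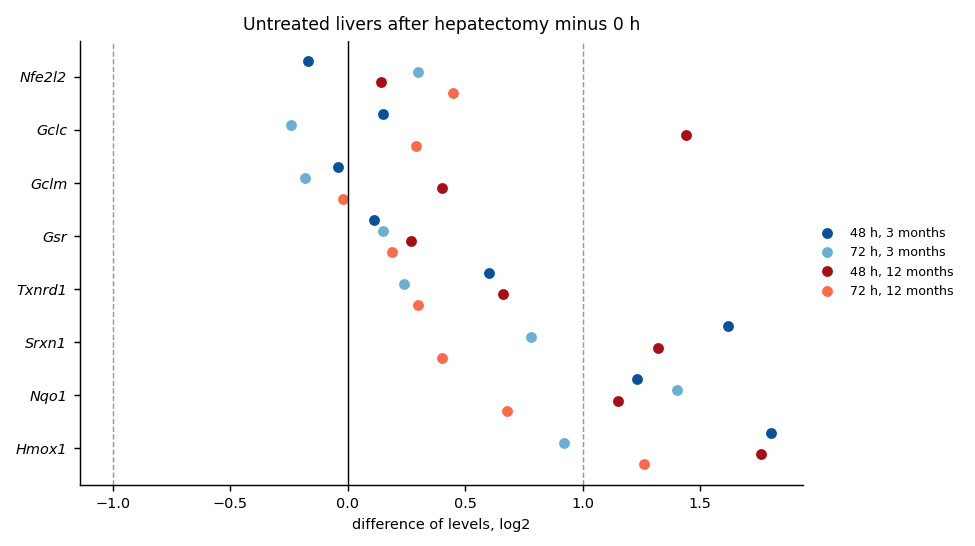
Difference of group means after surgery without ATRi minus 0 h at the same age, on the log2 scale, for each of the 8 genes (48 h and 72 h, 3 and 12 months). Dashed lines stand at a difference of 1 in either direction and there are no error bars, since both groups are single means. Hmox1, Srxn1 and Nqo1 lie to the right of 1 at 48 h at both ages, and Gclm, Gsr and Nfe2l2 lie within 0.45 of 0 throughout.

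Hmox1 encodes heme oxygenase 1, which breaks heme down to biliverdin, iron and carbon monoxide. At 3 months its level was 5.41 at 0 h, 7.21 at 48 h and 6.33 at 72 h. At 12 months the level was 5.82 at 0 h, 7.59 at 48 h and 7.08 at 72 h. Both ages were highest at 48 h among the untreated groups. The difference from 0 h was 1.80 at 48 h and 0.92 at 72 h at 3 months, and 1.76 at 48 h and 1.26 at 72 h at 12 months. Against the SD of 0.26 among the 4 livers with ATRi, the only spread available, each of these differences was larger.

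Macrophages also make Hmox1, so their markers are given beside it. The mean level of the 9 measured macrophage markers of 13 listed (such as Cd68 and Cd163) was 3.62 at 0 h and 3.69 at 48 h at 3 months. At 12 months it was 4.36 at 0 h and 3.39 at 48 h. At 12 months none of the 9 markers was above its 0 h level at 48 h and their median difference was -0.89, while Hmox1 was higher by 1.76. At 72 h against 0 h at 12 months 8 of the 9 markers were above 0 h and 2 were past 1, with a median difference of 0.67, and Hmox1 was higher by 1.26. Neutrophil markers (7 measured of 10) were below 0 h in 7 of 7 at 48 h, by a median of -0.59, and above it in 6 of 7 at 72 h, by a median of 1.22, with 4 past 1. The mean of the 6 measured erythroid markers of 7 listed was 4.0 at 0 h, 3.75 at 48 h and 3.90 at 72 h at 12 months. The part of these cells in the Hmox1 levels was not tested.

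Srxn1 encodes sulfiredoxin, which restores overoxidised peroxiredoxins. Its level at 3 months was 6.53 at 0 h, 8.15 at 48 h and 7.31 at 72 h. At 12 months it was 6.91 at 0 h, 8.23 at 48 h and 7.31 at 72 h. The 48 h means were the highest at both ages, and the 12-month group at 48 h with ATRi, at 8.17, lay beside them within the SD of 0.51 among the livers. The difference between 48 h and 0 h was 1.62 at 3 months and 1.32 at 12 months.

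Of the 4132 genes with a range of 1 or more that could be compared, those whose pattern over the 9 means was most like Srxn1 were Mcm6, with a Pearson r of 0.987, Uhrf1 with 0.98 and Cenph with 0.979. Mcm6 encodes a subunit of the replicative helicase, Uhrf1 a maintenance factor of DNA methylation and Cenph a kinetochore protein. Mcm6 stood at 2.54 at 0 h, 5.29 at 48 h and 4.06 at 72 h at 3 months, and at 3.17 at 0 h, 5.46 at 48 h and 4.35 at 72 h at 12 months. The r is a description over 9 means of unequal size, and the 3 genes were picked from many by this measure.

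Nqo1 encodes a quinone reductase that is a common readout of NRF2. At 3 months its level was 4.21 at 0 h, 5.44 at 48 h and 5.61 at 72 h, so the later mean was not below the earlier. At 12 months it was 4.04 at 0 h, 5.19 at 48 h and 4.72 at 72 h. The 48 h mean was higher than 0 h by 1.23 at 3 months and 1.15 at 12 months. By 72 h the 12-month mean was 0.89 below the 3-month mean, the lowest difference between ages of any member at that time. The genes most like Nqo1 over the 9 means were Akr1b7 with a Pearson r of 0.948, Tnfrsf10b with 0.947 and Gsta4 with 0.927. Akr1b7 is an aldo-keto reductase, and Gsta4 a glutathione transferase for lipid aldehydes. Tnfrsf10b, ranked between them, encodes a receptor and not such an enzyme. These 3 genes too were picked from many by this measure.

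Gclc and Gclm encode the catalytic and the modifier subunit of glutamate-cysteine ligase, the first enzyme of glutathione synthesis. Gclc stood at 5.48 at 0 h, 5.63 at 48 h and 5.25 at 72 h at 3 months. In the 12-month groups Gclc was at 4.94 at 0 h, 6.37 at 48 h and 5.23 at 72 h. The 12-month difference at 48 h was 1.44, against 0.15 at 3 months. Between 48 h and 72 h at 12 months Gclc was lower by 1.14, the only member past 1 in that comparison, in which 1.89% of all genes were lower and 3.32% higher. Gclm stood at 5.74, 5.70 and 5.57 at 0 h, 48 h and 72 h at 3 months and at 5.59, 5.99 and 5.57 at 12 months. Its differences from 0 h ran from -0.18 to 0.40, and the SD of Gclm among the livers was 0.31. The genes whose pattern was most like Gclc were Dhx9 with a Pearson r of 0.903, Psat1 with 0.876 and Slc22a5 with 0.862.

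Gsr and Txnrd1 encode the NADPH-dependent reductases of glutathione and of thioredoxin. Txnrd1 was at 5.35, 5.95 and 5.59 at 0 h, 48 h and 72 h at 3 months and at 5.53, 6.2 and 5.84 at 12 months. Its difference at 48 h was 0.60 at 3 months and 0.66 at 12 months, above the SD of 0.17 among the livers but under 1. With the spread borrowed from the livers both differences passed (limma, adjusted p = 0.0371 at 3 months and 0.0303 at 12 months). Gsr was at 4.39, 4.51 and 4.55 at 3 months and at 4.36, 4.63 and 4.55 at 12 months, so that all its differences from 0 h were between 0.11 and 0.27, within the liver SD of 0.29.

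Nfe2l2 itself was nearly level through regrowth without ATRi. It stood at 3.56, 3.39 and 3.86 at 0 h, 48 h and 72 h at 3 months and at 3.24, 3.38 and 3.69 at 12 months. These differences from 0 h, from -0.17 to 0.45, were smaller than the SD of 0.76 among the 4 livers, which is a spread of single livers with ATRi. With that spread borrowed, their standard errors ran from 0.35 to 0.39. None passed (limma, adjusted p from 0.39 to 0.873), so their order is not resolved.

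Between 48 h and 72 h at 3 months no member was past 1 in either direction, against 1.61% of all genes higher and 3.04% lower. The lowest differences were -0.88 for Hmox1 and -0.85 for Srxn1.

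No member differed by 1 or more between ages at any time without ATRi. At 0 h the 12-month minus 3-month difference ran from -0.55 for Gclc to 0.41 for Hmox1, where 0.872% of all genes were past 1 upwards and 0.396% downwards. At 48 h it ran from -0.25 for Nqo1 to 0.74 for Gclc, with 0.782% higher and 0.576% lower among all genes. At 72 h it ran from -0.89 for Nqo1 to 0.75 for Hmox1, with 1.97% higher and 0.773% lower. Srxn1, Gclm, Gsr and Gclc differed by no more than 0.02 between ages at 72 h. The mean level of the macrophage markers was 4.04 at 3 months and 5.24 at 12 months at 72 h, beside the higher Hmox1 at 12 months, and 9 of 9 were higher, by a median of 0.94. Neutrophil markers were higher in 7 of 7, by a median of 1.55. Their part in it was not tested.

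With ATRi the 3 matched comparisons gave different pictures. At 48 h in 12-month mice no member was past 1, against 0.324% of all genes higher and 0.252% lower. Hmox1 was lower by 0.81 (6.77 with ATRi, 7.59 without), Gclc was lower by 0.69 (5.68 and 6.37) and Nqo1 was higher by 0.81 (6.0 and 5.19). The other 5 members differed by no more than 0.18. At 72 h in 3-month mice no member was past 1 either, against 0.054% higher and 0.126% lower. Hmox1 again had the lowest difference, -0.70 (5.63 with ATRi, 6.33 without), Gclc was higher by 0.52 and Srxn1 by 0.41, while Nqo1 was at 5.61 in both groups. Each of these is a pair of means with no error. Beside the lower Hmox1 at 48 h in 12-month mice, the erythroid marker mean was 2.83 with ATRi and 3.75 without. There 7 of 9 macrophage markers were above the untreated mean (median 0.11), and 5 of 7 neutrophil markers (median 0.0). At 72 h in 3-month mice, 1 of 9 macrophage markers was above the untreated mean (median -0.27). The same held for 0 of 7 neutrophil markers (median -0.05) and 2 of 6 erythroid markers (median -0.19). The neutrophil marker mean there was near the floor, at 0.71 with ATRi and 0.94 without. The part of these cells in the Hmox1 differences was not tested.

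In 12-month mice at 72 h with ATRi, single livers were available. Nfe2l2 was at 6.17 in M545, 4.30 in M546, 5.20 in M547 and 5.19 in M548. All 4 livers were above the untreated mean of 3.69 and above each of the other 7 group means, and M546 was the lowest. The difference from untreated mice was 1.52 with a standard error of 0.40 (limma, Benjamini-Hochberg adjusted p = 0.0576 over all genes), which missed the threshold of 0.05. Without M546 it was 1.83 and past the threshold (limma, adjusted p = 0.0184), and over the 8 alternatives with a test the adjusted p ran from 0.0184 to 0.371.

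Hmox1 was at 8.05 in M545, 7.61 in M546, 7.44 in M547 and 7.67 in M548, and all 4 livers were above the untreated mean of 7.08. Its difference was 0.61 with a standard error of 0.16 (limma, adjusted p = 0.0586). Nqo1 was at 5.59, 5.14, 5.86 and 4.98 in M545, M546, M547 and M548, also above the untreated mean of 4.72 in all 4, with a difference of 0.68 and a standard error of 0.24 (limma, adjusted p = 0.094). Txnrd1 was at 6.29, 5.98, 6.26 and 6.36, above the untreated mean of 5.84 in all 4, with a difference of 0.39 and a standard error of 0.14 (limma, adjusted p = 0.104).

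The other 4 members overlapped the untreated mean. Srxn1 was at 7.85, 6.99, 7.59 and 6.75 in M545, M546, M547 and M548 around 7.31, with a difference of -0.01 and a standard error of 0.27. Gclc was at 5.49, 5.27, 6.0 and 5.21, with 3 of 4 livers above 5.23. Gclm was at 5.92, 5.60, 5.21 and 5.33, with 2 of 4 above 5.57. Gsr was at 5.25, 4.54, 4.91 and 4.83, with 3 of 4 above 4.55. M545 was the highest of the 4 livers for Nfe2l2, Gclm, Gsr, Srxn1 and Hmox1. M545 also had the highest mean level of the macrophage markers, 5.36 against 4.68, 4.68 and 4.77. Set against untreated mice, though, 1 of the 9 macrophage markers was higher, with a median difference of -0.42, while Hmox1 was higher by 0.61. Neutrophil markers were higher in 5 of 7 (median 0.24) and erythroid markers in 3 of 6 (median 0.0), and no marker of these cells was called. The part of these cells in the levels was not tested.

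None of the 8 members was called in this comparison, and neither was any of the 11119 genes (0.0% higher and 0.0% lower by limma at an adjusted p under 0.05). At an unadjusted p under 0.05, 4116 genes (37.0%) passed, among them Nfe2l2, Hmox1, Nqo1 and Txnrd1. By size alone, 5.19% of the tables' genes lay 1 or more above the untreated mean and 2.08% lay 1 or more below it, and Nfe2l2 was the member past 1. The call depends on 1 liver: without M546, 3191 of all genes passed the adjusted threshold. The spread comes from these 4 livers alone and the untreated mice are assumed to vary like them.

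**Figure D3:**
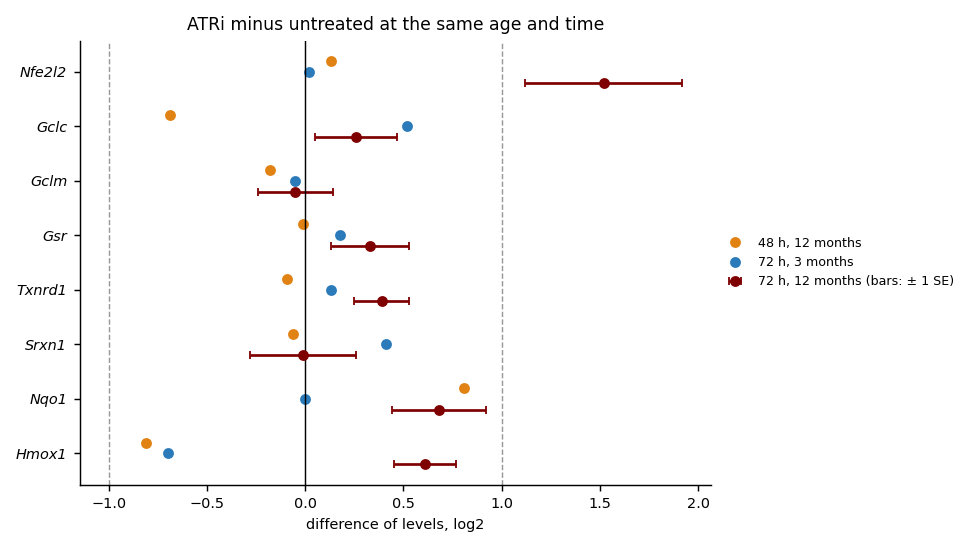
Difference of levels with ATRi minus untreated at the same age and time, on the log2 scale, for each of the 8 genes. Orange is 48 h at 12 months and blue 72 h at 3 months (means only, no error), dark red is 72 h at 12 months with bars of 1 standard error from limma, and dashed lines stand at 1 in either direction. Nfe2l2 at 12 months and 72 h is the one point past 1, and Hmox1 lies below 0 in 2 comparisons and above 0 in the third.

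Longer introns went with higher levels in the same comparison. With all matched genes split into 5 bins of equal size by intronic length, the median difference between ATRi and untreated 12-month mice at 72 h was -0.13 in the bin with the shortest introns, then -0.18, -0.05, 0.12 and 0.40. The share of genes higher by 1 or more was 2.07%, 1.78%, 3.99%, 5.76% and 13.2% in the same order. In order of length, Hmox1 and Srxn1 were in bin 1, Nqo1 in bin 2, Nfe2l2 and Gclm in bin 3, and Gclc, Txnrd1 and Gsr in bin 4. At 3 months the 5 medians lay between -0.04 and 0.02. Against 48 h under ATRi, the 12-month ATRi livers at 72 h had a median of -0.22 in bin 1 and 0.48 in bin 5. Against 3-month mice with ATRi these medians were -0.04 and 0.42, and against 0 h they were -0.23 and 0.46. At 48 h against 0 h without ATRi they were -0.03 and -0.14 at 3 months and -0.07 and -0.02 at 12 months. The part of intronic length in the level of Nfe2l2, or in the calls of members and regulators given below, was not tested. The genes most like Nfe2l2 over the 9 means were Anks1 with a Pearson r of 0.996, Hacd2 with 0.991 and Pdlim1 with 0.991. Without the 12-month ATRi mean at 72 h these were 0.974, 0.917 and 0.941 over 8 means.

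The change of the ATRi difference with age at 72 h was tested as an interaction. It was 1.51 for Nfe2l2 with a standard error of 0.56 (limma, adjusted p = 0.174) and 1.31 for Hmox1 with a standard error of 0.23 (limma, adjusted p = 0.11), and none of the 8 members passed. Of all genes 1 passed (0.00899% higher and 0.0% lower), and 2724 (24.5%) did at an unadjusted p under 0.05. Without M546 the interaction of Hmox1 was 1.34 (limma, adjusted p = 0.0377), and over the 8 alternatives with a test its adjusted p ran from 0.0377 to 0.892. That result therefore rests on which livers are counted.

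Under ATRi at 72 h, 12-month livers stood above 3-month livers for Hmox1, Txnrd1 and Nfe2l2. Of the 8 members 3 were called higher and none lower, against 17.3% of all genes higher and 12.9% lower. Hmox1 was higher by 2.06 with a standard error of 0.16 (limma, adjusted p = 0.00537), with all 4 livers at 7.44 or more against a 3-month mean of 5.63. Nfe2l2 was higher by 1.34 with a standard error of 0.40 (limma, adjusted p = 0.0471) and Txnrd1 by 0.50 with a standard error of 0.14 (limma, adjusted p = 0.0402), each in all 4 livers. The calls of Nfe2l2 and Txnrd1 were lost when M545, M547 or M548 was left out, with differences of 1.02, 1.34 and 1.35 for Nfe2l2 and of 0.48, 0.49 and 0.45 for Txnrd1. With every group given weight 1 in place of its number of mice, none of the 3 passed, and without the intensity trend and robust fit Nfe2l2 did not. Nqo1 at -0.22, Gclc at -0.27, Srxn1 at -0.42, Gsr at 0.16 and Gclm at 0.00 did not pass. The macrophage markers moved with Hmox1 here: 9 of 9 were higher at 12 months, by a median of 1.27, and 4 were called. Neutrophil markers did so too, 7 of 7 by a median of 2.62, with 6 called, and erythroid markers, 6 of 6 by a median of 0.42, with 2 called. Their part in the Hmox1 difference was not tested.

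From 48 h to 72 h under ATRi at 12 months, Nfe2l2 and Hmox1 were called higher and no member lower, 2 of 8 against 17.8% of all genes higher and 20.7% lower. Nfe2l2 rose by 1.71 with a standard error of 0.43 (limma, adjusted p = 0.0243), from a 48 h mean of 3.50, and Hmox1 by 0.92 with a standard error of 0.17 (limma, adjusted p = 0.0108), from 6.77. Without M547 or without M548 the Nfe2l2 difference was 1.71 and no longer passed, and with every group at weight 1 neither gene did. Srxn1 was lower by 0.87 (limma, adjusted p = 0.0536) and in all 4 livers, and without M545 its difference was -1.05 and passed (limma, adjusted p = 0.0286, the lowest over its 8 tested alternatives, whose highest was 0.204). The macrophage markers were higher in 9 of 9 with 8 called, by a median of 1.33, beside the rise of Hmox1. So were neutrophil markers, 7 of 7 with 6 called and a median of 2.27, and erythroid markers, 6 of 6 with 4 called and a median of 0.97. Their part in the rise was not tested. In the untreated 12-month mice over the same interval, Nfe2l2 was higher by 0.31 and Hmox1 lower by 0.50.

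Against 0 h at 12 months, the ATRi livers at 72 h had 6 of 8 members called higher and none lower, where 23.0% of all genes were called higher and 25.1% lower. Hmox1 was higher by 1.87 with a standard error of 0.14 (limma, adjusted p = 0.000983), Nfe2l2 by 1.98 with 0.35 (limma, adjusted p = 0.0055) and Nqo1 by 1.35 with 0.20 (limma, adjusted p = 0.00355). Txnrd1 was higher by 0.69 (limma, adjusted p = 0.00565), Gclc by 0.56 (limma, adjusted p = 0.0445) and Gsr by 0.52 (limma, adjusted p = 0.047). The call of Gclc was lost without any 1 of the 4 livers, with differences from 0.39 to 0.65, and the call of Gsr was lost without M545, M547 or M548, with differences of 0.40, 0.51 and 0.54. With every group at weight 1 only Hmox1 of these 6 passed, and without the intensity trend and robust fit Gclc did not. Gclm at -0.07 and Srxn1 at 0.39 did not pass. Beside the higher Hmox1, 5 of 7 neutrophil markers were called higher (median 1.39) and 4 of 9 macrophage markers higher and 1 lower (median 0.33). Of the 6 erythroid markers 3 were called lower (median -0.09). Their part was not tested. The untreated 12-month mice at 72 h, compared with the same 0 h mean, had differences of 1.26 for Hmox1, 0.45 for Nfe2l2 and 0.68 for Nqo1.

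The genes that act on NRF2 or compete with it were followed through a list of 14, of which 13 were measured. Keap1, the inhibitor of NRF2, was at 4.22, 4.14 and 3.61 at 0 h, 48 h and 72 h at 3 months and at 4.78, 4.21 and 4.71 at 12 months. In the ATRi livers at 72 h it was at 3.09 in M545, 3.84 in M546, 3.52 in M547 and 3.32 in M548, all below the untreated mean, with a difference of -1.27 (limma, adjusted p = 0.0513). Against 0 h at 12 months Keap1 was lower by 1.34 (limma, adjusted p = 0.0029). Both differences use the levels of the 4 livers. The authors' own mean of Keap1 in this group was 3.79, which lay nearer to the untreated means of 4.71 at 72 h and 4.78 at 0 h. Bach1, a repressor that occupies the same elements and is released by heme, was at 5.36, 5.05, 5.79 and 6.02 in M545, M546, M547 and M548 against 4.46 in untreated mice, higher by 1.09 (limma, adjusted p = 0.0523). From 48 h to 72 h under ATRi Bach1 rose by 1.79 (limma, adjusted p = 0.0066). In these livers transcripts of the activator and of the competing repressor were thus both above the untreated mean.

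Among the other regulators with the widest ranges, Maff, which encodes a small MAF partner, was higher at 48 h by 0.99 at 3 months and 0.90 at 12 months. Sqstm1, whose product p62 draws KEAP1 into autophagy, was higher at 48 h by 1.03 at 3 months and 0.45 at 12 months. Crebbp and Gsk3b, a coactivator and a kinase of NRF2, were highest in the 12-month ATRi group at 72 h. The authors' means there were 3.90 and 3.68, against 2.57 and 2.51 in untreated mice. Taken from the 4 livers, the differences were 1.06 for Crebbp (limma, adjusted p = 0.0521) and 1.04 for Gsk3b (limma, adjusted p = 0.0526). Of the 13 regulators 6 were called higher and 1 lower from 48 h to 72 h under ATRi at 12 months. Of all genes 17.8% were called higher and 20.7% lower there, and the median difference was 0.77 against -0.04 over all genes. Between ages under ATRi 7 regulators were called higher and none lower, against 17.3% of all genes higher and 12.9% lower. The median there was 0.71 against 0.02. No regulator, and none of all genes, was called between ATRi and untreated 12-month mice at 72 h. The median of the regulators was 0.51 there, against 0.03 over all genes.

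**Figure D4:**
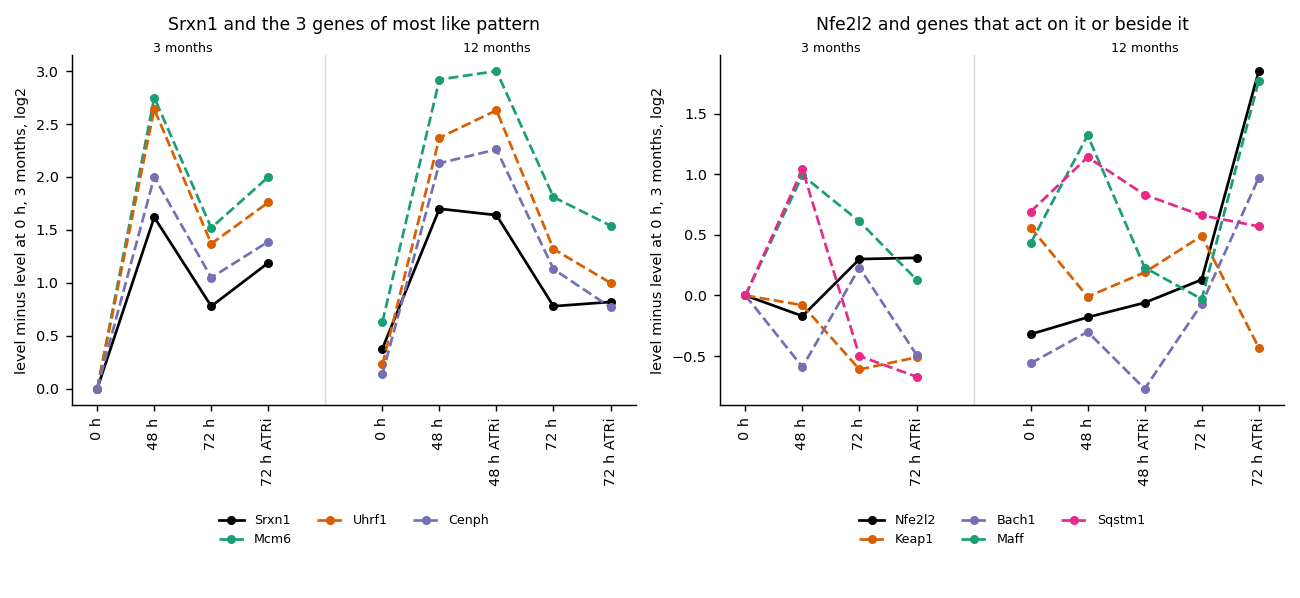
Group means minus the level at 0 h and 3 months, on the log2 scale, for Srxn1 with the 3 genes of most like pattern (left) and for Nfe2l2 with 4 genes that act on it or beside it (right). Points are group means and lines join neighbouring groups of 1 age only to guide the eye. Srxn1 and the 3 genes beside it are highest at 48 h at both ages, and in the 12-month ATRi group at 72 h Nfe2l2, Bach1 and Maff are at their highest while Keap1 is at its lowest of the 12-month groups.

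Other enzymes of NRF2-linked detoxification (glutathione transferases, aldo-keto reductases and conjugating enzymes, 30 measured of 34) were compared in the same way. At 48 h, 7 were higher by 1 or more and 1 lower at 3 months, and 6 higher and none lower at 12 months. Among all genes 3.76% were higher and 2.67% lower at 3 months, and 3.26% higher and 1.85% lower at 12 months. The median difference was 0.36 at 3 months, against -0.09 over all genes, and 0.61 at 12 months, against -0.02. Gstp1, a glutathione transferase, was at 3.80 at 0 h, 6.42 at 48 h and 3.77 at 72 h at 3 months, and at 4.28, 7.68 and 4.84 at 12 months. Its neighbour Gstp2 ran in parallel and may share its reads. Ptgr1, a reductase of prostaglandins and lipid aldehydes, was higher at 48 h by 2.29 at 3 months and 0.66 at 12 months. Between ages under ATRi at 72 h, 19 of the 30 were called lower and 1 higher, with a median of -0.66 against 0.02 over all genes. Of all genes 12.9% were called lower and 17.3% higher there, and 3 members were called higher. Cyp2a5, a cytochrome P450, was among the 19 called lower, with a difference of -3.26 (limma, adjusted p = 0.00693). Hepatocyte markers were lower there too, 3 of 8 called, by a median of -0.46, and their part in this list's difference was not tested.

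The other lists of the antioxidant system are given by their counts at 48 h, beside 3.76% of all genes higher and 2.67% lower at 3 months and 3.26% and 1.85% at 12 months. Of 15 further glutathione and thioredoxin genes measured of 24, 1 was higher and 2 were lower by 1 or more at 48 h at 3 months, and 1 was higher and none lower at 12 months. Txnip, which encodes an inhibitor of thioredoxin, was one of the lower ones at 3 months, by -2.46, and was at 8.37 at 0 h and 5.91 at 48 h. Of 7 genes of NADPH supply measured of 9, none was past 1 at 48 h at either age. Of 8 superoxide and peroxide enzymes measured of 9, none was past 1 at 48 h either. Msra, a methionine sulfoxide reductase of this list, was at 3.28, 2.19, 3.53 and 3.43 in M545, M546, M547 and M548 against 1.61 in untreated 12-month mice at 72 h, higher by 1.5 (limma, adjusted p = 0.0521). Of 8 heme and iron genes measured of 13, Hpx, the plasma heme scavenger, was higher by 1.55 at 48 h at 3 months and was the one past 1. At 12 months Alas1, the first enzyme of heme synthesis, was higher by 1.20, and Cd163, the macrophage receptor for hemoglobin, was lower by 1.17.

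The members also differed from one another in how they ran across the 9 means. Pearson r between pairs went from -0.44 for Gclm and Nfe2l2 to 0.88 for Txnrd1 and Hmox1. Gclc and Gclm, the subunits of 1 enzyme, had an r of 0.73, and Gsr and Nfe2l2 one of 0.84. Nfe2l2 had an r of -0.14 with Srxn1, 0.35 with Nqo1 and 0.36 with Hmox1. These are descriptions over 9 means that share the 12-month ATRi group, in which Nfe2l2 stands apart. Hmox1, for its part, was most like Tat, with an r of 0.938, Steap4 with 0.937 and Syt12 with 0.923. Tat, a tyrosine-degrading enzyme of hepatocytes, was at 4.38 at 0 h and 8.01 at 48 h at 3 months and at 5.66 and 7.64 at 12 months.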

How the data were processed

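The authors deposited 12 tables of log2 levels of a value named sigma, each for the same 11119 genes placed in bins of 10000 bp. Per the submitters' processing notes the genome build was GRCm38/mm10. The aligner, counting, scaling, filters and the way group means were made are not given in the sources used here. Depth is unknown. The deposited mean of the 12-month ATRi group at 72 h exceeded the mean of its 4 livers by a median of 0.088.

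Levels were used unscaled. In 11 comparisons of 2 means, a gene was called at a difference of 1 or more, with limma on a borrowed spread as an alternative. The 4 comparisons and 1 interaction with single livers went into limma (version 3.58.1, R 4.3.3) as two-sided tests (means weighted by number of mice, intensity trend, robust empirical Bayes, Benjamini-Hochberg over all genes, 0.05) after the code was tested on simulated data. P-values measure only the spread between these 4 livers.

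Members and lists were chosen with earlier results of these data known. All members were named, plus up to 4 genes per list by range over 9 means, Keap1 and Bach1, and the 3 genes most like each member whose range was 1 or more. Promoters came from RefSeq (GRCm38.p6) and gene models from GENCODE M21, which matched 10409 genes. The split by intronic length and the likeness without 1 mean were chosen after seeing the data.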

Additional observations from a re-analysis of the deposited data

How the results depend on the processing

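No result reversed. Of 624 differences of single members under an alternative, 582 kept their size or call, 32 lost a call and 10 gained one. Of 78 counts of members called, 61 stayed within 1.5 times. Centred on the median of all genes, 2 members were called at 72 h against 0 h at 3 months, Nqo1 and Hmox1, in place of 1. With the spread borrowed from the 4 livers, limma called 2 in that comparison, 1 at 72 h against 48 h at 3 months (Hmox1), and at 48 h against 0 h 4 in place of 3 at 3 months and 5 in place of 4 at 12 months, Txnrd1 being the one gained in both. With every observation at weight 1, 0 members were called between ages under ATRi, 0 at 72 h against 48 h under ATRi and 1, Hmox1, at 72 h with ATRi against 0 h, and the counts of all genes were 2, 665 and 219, against 3350, 4279 and 5352. With the deposited mean in place of the livers and a difference of 1, 1 member was called between ATRi and untreated mice (Nfe2l2, 1.72), 1 at 72 h against 48 h under ATRi, 3 at 72 h with ATRi against 0 h and 2 in the interaction (Hmox1 1.29, Nfe2l2 1.71). Leaving out each liver gave 0 to 1 members for ATRi against untreated mice, 1 to 3 between ages under ATRi, 1 to 3 at 72 h against 48 h, 4 to 5 against 0 h and 0 to 1 for the interaction. Without M546 the interaction called 1495 genes of all, in place of 1. Between ages under ATRi all genes called fell from 3350 to 1072 without M547 and 1182 without M548, and at 72 h against 48 h under ATRi from 4279 to 2511 and 2723. Between 2 means, the borrowed spread called 1473 genes in place of 715 at 48 h and 1664 in place of 499 at 72 h against 0 h at 3 months, 1125 in place of 569 and 1406 in place of 437 at 12 months, and 537 in place of 141 between ages at 0 h. It called 12 in place of 151 between ages at 48 h, 202 in place of 305 at 72 h, 2 in place of 64 for ATRi at 48 h and 1 in place of 20 for ATRi at 3 months. At 72 h against 48 h at 3 months it called 623 of all genes (5.6%) in place of 517. No paired analysis was possible because only 1 group has levels of single mice. Depth is unknown, so no limit from counting can be given.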
